A study of Mus musculus with 4 samples.

Results

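The genes followed here are 9 transcripts best known from neurons and glia: Mbp, Mal, Mog, Gfap, S100b, Apoe, Clu, Cst3 and Snap25. They were read in sorted endothelial cells (ECs, the inner lining of vessels) of mouse brain parenchyma and dura mater, the tough outermost layer of the meninges. They were found by gene symbol, 1 line each, among the 23282 symbols listed, of which 13660 had at least 1 count in any library. Both groups came from C57BL/6J mice aged 8 weeks, with no injury or treatment given in the labels, and each group held 2 libraries, called replicates 1 and 2 after the sample titles. Per the methods of the study, tissue was digested with enzymes, brain ECs were first enriched on CD31 magnetic beads, and cells were then sorted with antibodies against CD31, CD45 (white blood cells) and TER-119 (red blood cells). The gate itself is not spelled out, and no antibody against glia, neurons or fibroblasts is listed. The number of mice behind a library and whether replicates came from separate mice are not stated, so any p-value measures only the spread between these libraries. The genes were selected on their counts in these 4 libraries, read by library and by tissue, and their differences between the tissues are therefore given as a description, with no test.

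Mbp (myelin basic protein), Mog (myelin oligodendrocyte glycoprotein) and Mal (a small membrane-raft protein) are components of the myelin that oligodendrocytes wrap around axons. Gfap, an intermediate filament protein, and S100b, a calcium-binding protein, are classical astrocyte markers, and Snap25 is a SNARE protein with which neurons release transmitter. Apoe and Clu are apolipoproteins and Cst3 is a secreted inhibitor of cysteine proteases. Astrocytes make large amounts of these last 3 proteins, but many cell types outside the nervous system make them as well, so they are weaker markers of neural tissue than Mog, Gfap or Snap25.

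Promoter sequence from RefSeq (GRCm38.p6) was at hand for 6 of the genes, and 3 are printed because they stand for the 3 patterns described below: Mal was lower in dura mater ECs, Apoe was higher there, and S100b was counted by replicate rather than by tissue. Each run holds the 250 bases before the start annotated in RefSeq, 5′ to 3′ on the strand of the gene, at chr2:127656696-127656945 (minus strand) for Mal, chr7:19699189-19699438 (minus strand) for Apoe and chr10:76253586-76253835 (plus strand) for S100b. For S100b, this start lies 17 bases from the start of the gene position given below. Capitals mark matches on either strand to GGAA (the core bound by ETS factors), ACAAT (a core bound by SOX factors) or CCAAT; no match overlapped a match to another of these motifs.
Mal: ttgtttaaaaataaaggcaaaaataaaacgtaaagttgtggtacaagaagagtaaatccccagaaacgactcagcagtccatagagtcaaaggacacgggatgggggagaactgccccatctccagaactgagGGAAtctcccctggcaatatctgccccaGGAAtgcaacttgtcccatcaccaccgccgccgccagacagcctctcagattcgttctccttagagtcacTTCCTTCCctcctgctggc
Apoe: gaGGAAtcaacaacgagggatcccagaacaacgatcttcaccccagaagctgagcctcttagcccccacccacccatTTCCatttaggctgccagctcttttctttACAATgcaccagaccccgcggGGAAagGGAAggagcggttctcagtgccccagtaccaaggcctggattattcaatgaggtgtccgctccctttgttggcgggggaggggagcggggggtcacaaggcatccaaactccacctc
S100b: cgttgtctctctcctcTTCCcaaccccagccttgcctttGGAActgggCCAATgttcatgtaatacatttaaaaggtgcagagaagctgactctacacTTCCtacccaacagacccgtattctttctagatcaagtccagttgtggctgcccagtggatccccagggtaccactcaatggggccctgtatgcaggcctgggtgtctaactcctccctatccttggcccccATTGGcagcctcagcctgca
GGAA was found 4 times in the Mal run, 4 times in the Apoe run and 3 times in the S100b run, and 93.4% of the 32851 promoter windows of this length in the reference held it at least once. ACAAT was found once, in the Apoe run, against 27.7% of windows, and CCAAT was found at 2 places in the S100b run, against 33.8% of windows. TATAAA (12.4% of windows) and GGGCGG (32.7%) were found in none of the 3 runs. These matches describe the letters only.

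The libraries held 13518973 to 16096203 counts, so a gene at 0 may still have made up to 3 counts, which is a level of 0.186 to 0.222 CPM (counts scaled to a library of 1000000), as far as counting error alone goes. All 14 pan-endothelial genes examined, among them Pecam1 (which encodes the sorted antigen CD31), had 64 or more counts in every library. Many genes were counted in 1 replicate of a tissue and nearly absent in the other. Of the symbols with at least 64 counts in a brain library, 31.3% had 7 or fewer in the other brain library, and the same share for the dura mater libraries was 30.7%. Of the 11051 symbols with at least 64 counts in 1 library or more, 38.6% reached 64 in all 4. Dura mater replicate 2 stood apart, since 1208 symbols (10.9%) reached 64 counts there alone, against 1.10% to 2.77% for each other library.

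Of the 9 genes, 4 were counted at 64 or more in every library (Mal, Apoe, Clu and Cst3), and 5 were not (Mbp, Mog, Gfap, S100b and Snap25). The first 4 had 1829 counts or more in each library, and their replicates lay close together. The other 5 were at 20 counts or fewer in at least 2 libraries each. The plot of counts by library shows these kinds of genes side by side. Together the 9 genes held 0.209% and 0.199% of the counts of the brain libraries (95% Wilson intervals 0.206 to 0.211 and 0.196 to 0.201), and 0.304% and 0.240% of those of the dura mater libraries (0.301 to 0.307 and 0.237 to 0.242). These intervals cover counting error only.

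**Figure D1:**
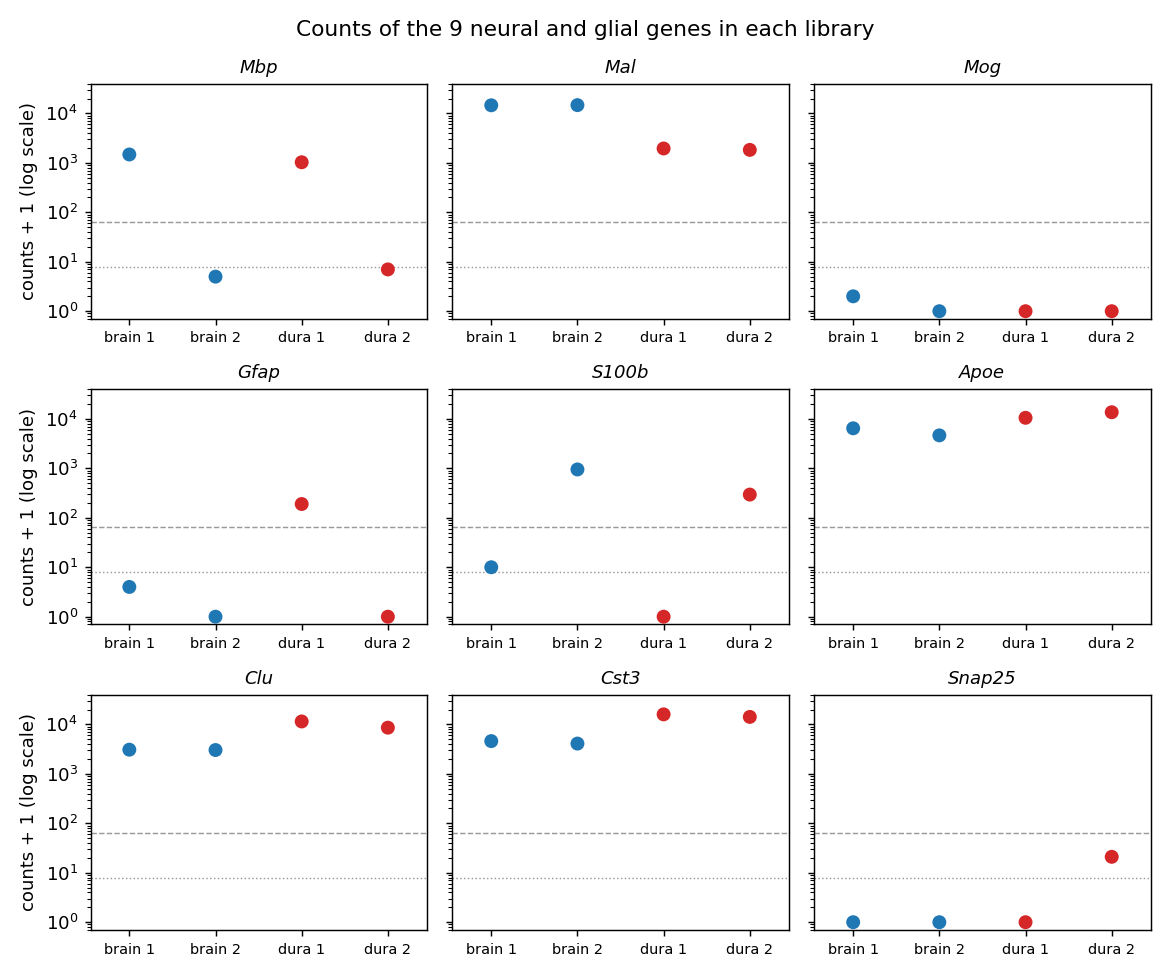
Counts of the 9 genes in the 2 brain EC (blue) and 2 dura mater EC (red) libraries, on a log axis of counts + 1; dotted and dashed lines mark 7 and 64 counts. Mal, Apoe, Clu and Cst3 lie above the dashed line in all 4 libraries, while Mbp and S100b lie above it in 1 library of each tissue.

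Mal (chromosome 2, 127633226 to 127656695, minus strand, GRCm38) was the only one of the 9 genes that was lower in both dura mater libraries than in both brain libraries. It had 14592 and 14696 counts in brain replicates 1 and 2, and 1952 and 1829 counts in dura mater replicates 1 and 2. The groups lay far apart and the replicates of each tissue lay close together. On the CPM scale, with library totals adjusted by a TMM factor for composition, Mal stood at 1054 ± 73.8 (brain) against 127 ± 24.1 (dura mater; SD, n = 2), which is 8.28-fold higher in brain ECs. The log2 fold change of dura mater over brain was −3.04 (SE 0.37). In these bulk libraries, fewer cells of a type and less RNA per cell cannot be told apart. Within a tissue its replicates differed by 1.10-fold (brain) and 1.31-fold (dura mater), and across the 4266 genes with at least 64 counts in every library the median replicate difference was 1.77-fold and 1.54-fold.

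Mog (chromosome 17, 37010743 to 37023398, minus strand), which is specific to myelinating oligodendrocytes, had 1 count in brain replicate 1 and 0 in the other 3 libraries. Mbp (chromosome 18, 82475146 to 82585637, plus strand) had 1476 and 4 counts in brain replicates 1 and 2, and 1027 and 6 counts in dura mater replicates 1 and 2. Mbp was thus high in replicate 1 and nearly absent in replicate 2 of both tissues. Its level was 50.8 ± 71.4 CPM (brain) against 38.1 ± 53.4 CPM (dura mater; SD, n = 2), and the replicates differed by 337-fold and 210-fold, far more than the tissues did (log2 fold change −0.41, SE 2.72). The same arrangement, at least 64 counts in both replicate 1 libraries and 7 or fewer in both replicate 2 libraries, was found for 33 of the 11051 symbols (0.299%). The opposite arrangement was found for 369 symbols (3.34%). The titles do not say whether equally numbered libraries share mice or were handled together.

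The remaining myelin genes were mostly at or near 0. Among 22 further oligodendrocyte and myelin genes, 6 had 0 counts in all 4 libraries, among them Mag and Mobp, and 11 had 7 or fewer in each. Of the 9 that were tested, 0 had an adjusted p under 0.05 by the quasi-likelihood test of edgeR (1 was higher in dura mater ECs at an unadjusted p under 0.05, as were 7.04% of all genes tested). Enpp2 (which encodes autotaxin) had the highest level, with 2109 and 235 counts in brain replicates 1 and 2, and 5123 and 3279 counts in dura mater replicates 1 and 2. Septin gene Sept4 followed, with 1390 and 944 against 751 and 1244 counts. The summed level of the list did not run with Mal, at 422 and 94.3 CPM (brain) against 654 and 414 CPM (dura mater).

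Peripheral glia, the Schwann cells of the nerves that run in the dura mater, share part of the myelin program. Of 12 of their genes, 5 were tested and 0 passed (0 at an unadjusted p under 0.05). Pmp22, a myelin protein that many other cells also make, had 2740 and 1864 counts (brain) against 4326 and 1088 (dura mater). Sox10 and Erbb3, which define the lineage, did not exceed 1 count in any library. Of 9 oligodendrocyte precursor genes, 6 had 7 or fewer counts in every library. The most counted were Vcan, a matrix proteoglycan, with 9 and 210 counts against 496 and 188, and Cspg4, which pericytes also make, with 0 and 1 against 263 and 65.

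Gfap (chromosome 11, 102887336 to 102900912, minus strand) was above 3 counts in a single library. It had 3 and 0 counts in brain replicates 1 and 2, and 189 and 0 counts in dura mater replicates 1 and 2, so that dura mater replicate 1 stood at least 77.3-fold above dura mater replicate 2, computed against 3 counts in the latter. S100b (chromosome 10, 76253853 to 76261159, plus strand) had 9 and 949 counts in brain replicates 1 and 2, and 0 and 294 counts in dura mater replicates 1 and 2. S100b was high in replicate 2 of both tissues, the reverse of Mbp. Its level was 36.0 ± 50.1 CPM (brain) against 8.86 ± 12.5 CPM (dura mater; SD, n = 2), with a log2 fold change of −1.99 (SE 3.36). The replicates differed by 116-fold in brain ECs and by at least 79.9-fold in dura mater ECs, so the tissues could not be told apart for S100b or for Gfap.

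**Figure D2:**
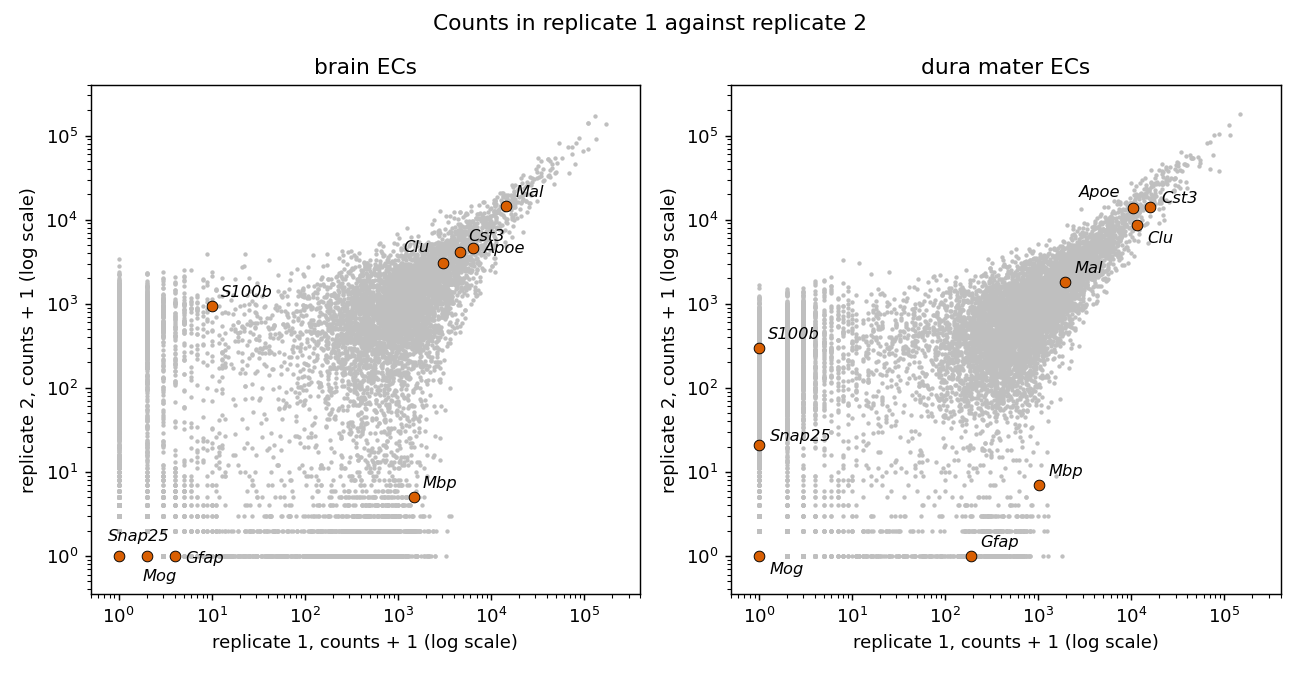
Counts + 1 of all symbols with at least 1 count (grey) and of the 9 genes (orange) in replicate 1 (x axis) against replicate 2 (y axis), both on log axes, for brain ECs (left) and dura mater ECs (right). Mal, Apoe, Clu and Cst3 lie in the band shared by both replicates, whereas Mbp, S100b and, in dura mater ECs, Gfap lie along an axis.

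More of the other astrocyte genes reached 64 counts in the dura mater libraries than in the brain libraries. Of 22 astrocyte genes, 7 and 9 had 64 or more counts in brain replicates 1 and 2, and 14 and 11 in dura mater replicates 1 and 2. Of all symbols listed, 28.8% and 28.4% reached 64 counts in brain replicates 1 and 2, and 31.3% and 42.2% in dura mater replicates 1 and 2, so the share over all symbols was also higher in dura mater replicate 2. Aqp4, the water channel of astrocyte endfeet, had 0 counts in all 4 libraries, and Aldh1l1 had no more than 1. The glutamate transporters Slc1a2 and Slc1a3, named after their values were seen, had 863 and 915 counts in dura mater replicate 1, 87 and 74 in dura mater replicate 2, and at most 1 in the brain libraries. Mlc1 and Ntsr2, named likewise, had 320 and 341 counts in dura mater replicate 1 and at most 1 elsewhere, as Gfap did apart from its 3 counts. Of the 11 astrocyte genes tested, 0 passed in edgeR (5 at an unadjusted p under 0.05, 4 of them higher in dura mater ECs).

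The most counted astrocyte genes were lower in dura mater ECs, without passing the test. Glul, which encodes glutamine synthetase, stood at 4822 ± 428 CPM (brain) against 1713 ± 557 CPM (dura mater; SD, n = 2), a log2 fold change of −1.48 ± 0.31 (SE; adjusted p 0.168 in edgeR). Sparcl1, a matrix protein, stood at 864 ± 256 and 537 ± 104 CPM (log2 fold change −0.67, SE 0.38, edgeR adjusted p 0.621). Both reached 64 counts in every library, like Mal, Apoe, Clu and Cst3. These 2 genes made up most of the summed astrocyte level, which was 6017 and 6021 CPM (brain) against 4025 and 2796 CPM (dura mater). Ppap2b (now Plpp3), named after its values were seen, had 242 and 449 counts (brain) against 5491 and 7633 (dura mater), with a log2 fold change of 4.11 ± 0.60 (SE; adjusted p 0.0544 in edgeR).

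Snap25 (chromosome 2, 136713453 to 136782428, plus strand) was nearly absent. It had 0 counts in 3 libraries and 20 in dura mater replicate 2, a level of 1.20 CPM. Among 23 further neuronal genes, 8 had 7 or fewer counts in every library, among them Rbfox3 and Syp, which was at 0 throughout. Of the 11 tested, 0 passed in edgeR (2 at an unadjusted p under 0.05, Map2 and Thy1). Stmn2, a tubulin-binding protein of growing axons, was 1 of 3 neuronal genes with 64 or more counts in every library. It had 2042 and 2239 counts (brain) against 1887 and 2473 in dura mater (log2 fold change −0.09, SE 0.55, edgeR adjusted p 1.00). Nrgn, a calmodulin-binding protein of dendrites, had 806 and 527 against 2182 and 593 counts. Camk2a and Snhg11, named after their values were seen, had 1266 and 1143 counts in dura mater replicate 1 and at most 3 elsewhere. Thy1, Meg3, Olfm1, Map2 and Gad2, named likewise, had at most 3 counts in each brain library. Dura mater replicates 1 and 2 held 539 and 711 counts of Thy1, 313 and 345 of Meg3, and 368 and 368 of Olfm1. They held 1196 and 255 of Map2, and 166 and 96 of Gad2. No neuronal gene had 64 or more counts in both brain libraries and 7 or fewer in both dura mater libraries. Uchl1 was lower in dura mater, with 566 and 1626 counts (brain) against 173 and 131. Dura mater replicate 2, with the 20 Snap25 counts, had 9 of the neuronal genes at 64 counts or more, against 13 in dura mater replicate 1.

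Each gene taken once, the lists of oligodendrocyte, precursor, peripheral glia, astrocyte and neuron genes held 86 genes, and 0 of the 37 tested differed between the tissues in edgeR (8 at an unadjusted p under 0.05, 7 of them higher in dura mater ECs, and 7 at an adjusted p under 0.05 in DESeq2). Of all genes tested, 7.04% were above 0 and 2.97% below 0 (log2 fold change) at an unadjusted p under 0.05, 0.610% passed at an adjusted p in edgeR, and 9.02% did so in DESeq2. The median log2 fold change of the 37 was 3.15, against −0.01 for all 9347 genes tested. Leaving out dura mater replicate 1, 2 of the genes had an unadjusted p under 0.05, and leaving out dura mater replicate 2, 5 did, whereas without brain replicate 1 or 2 the number was 14 or 12. Of the 86 genes, 50 reached 64 counts in any library. Of these 50, 9 (18.0%) did so in dura mater replicate 1 alone, where 2.77% of all symbols did, and 1 (2.00%) in dura mater replicate 2 alone, where 10.9% of all symbols did. A further 11 (22.0%) were at 7 counts or fewer in each brain library while reaching 64 in each dura mater library, against 6.89% of all symbols.

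**Figure D3:**
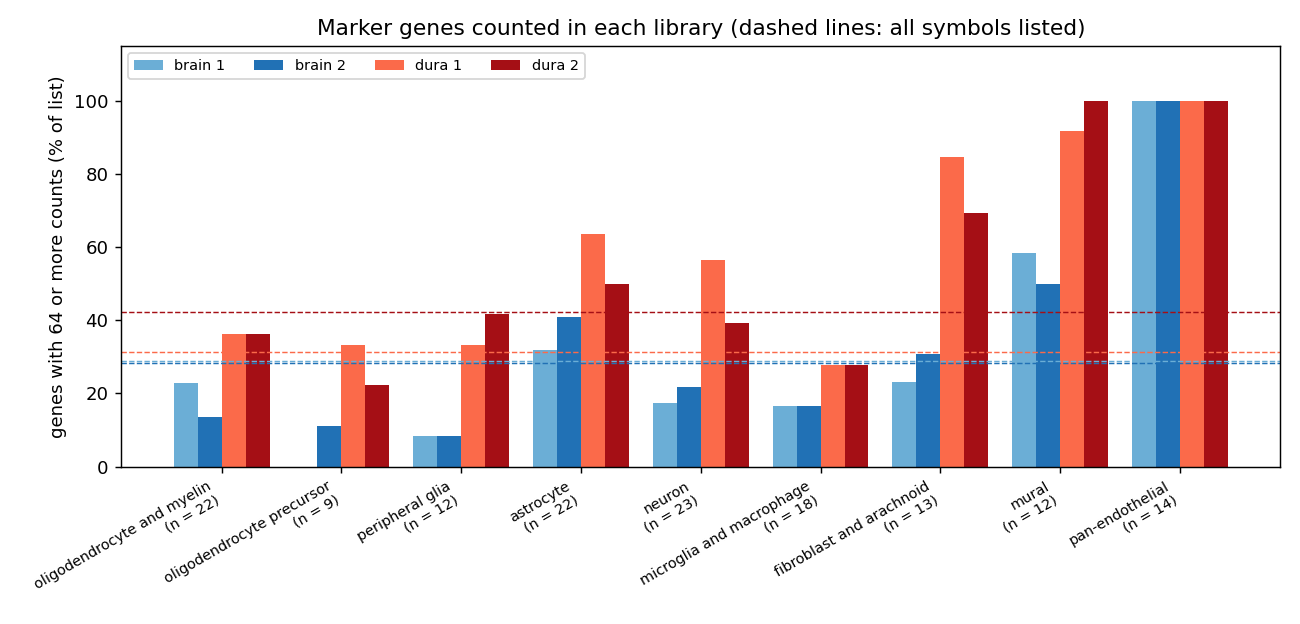
Share of each marker list (percent of its genes, n under each name) with 64 or more counts, in brain EC replicates 1 and 2 (light and dark blue) and dura mater EC replicates 1 and 2 (light and dark red); dashed lines give the same share over all symbols listed. The neuron and astrocyte bars are highest in dura mater replicate 1, and pan-endothelial genes reach 100% in each library.

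Apoe, Clu and Cst3 were higher in dura mater ECs in both replicates. Apoe (chromosome 7, 19696109 to 19699188, minus strand), the main lipid carrier secreted in brain and by macrophages, had 6454 and 4645 counts in brain replicates 1 and 2, and 10524 and 13646 counts in dura mater replicates 1 and 2. Its groups did not overlap, and its level was 396 ± 66.1 CPM (brain) against 800 ± 31.2 CPM (dura mater; SD, n = 2), a 2.02-fold difference (log2 fold change 1.02, SE 0.34). Clu (chromosome 14, 65968483 to 65981547, plus strand), a secreted chaperone, had 3081 and 3032 counts in brain replicates 1 and 2, and 11473 and 8589 counts in dura mater replicates 1 and 2. Its brain replicates were nearly equal and both dura mater libraries were higher, at 220 ± 11.8 and 683 ± 234 CPM, a 3.11-fold difference (log2 fold change 1.64, SE 0.41). Cst3 (chromosome 2, 148871722 to 148875692, minus strand), which encodes cystatin C, had 4593 and 4093 counts in brain replicates 1 and 2, and 15966 and 14184 counts in dura mater replicates 1 and 2. It stood at 312 ± 5.11 and 1017 ± 230 CPM, a 3.26-fold difference (log2 fold change 1.72, SE 0.35).

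Of the 9 genes, 6 passed the filter on low counts (Mbp, Mal, S100b, Apoe, Clu and Cst3) while Mog, Gfap and Snap25 did not, and 1 of the 6, Mal, had an adjusted p under 0.05 in edgeR, where 0.610% of all genes tested did. The groups of 4 genes did not overlap (Mal, Apoe, Clu and Cst3), and 43.0% of all genes tested had groups that did not overlap. Because the genes were picked with this comparison in view, these counts are no test of them and nothing is read from them. Across all genes tested, 19.1% had a log2 fold change at least as large in size as that of Mal, and 34.8%, 36.3% and 53.1% had one at least as large as those of Cst3, Clu and Apoe. The sign of the fold change of Mbp and S100b turned when single libraries were left out, whereas those of Mal, Apoe, Clu and Cst3 kept their sign in all 16 alternatives.

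**Figure D4:**
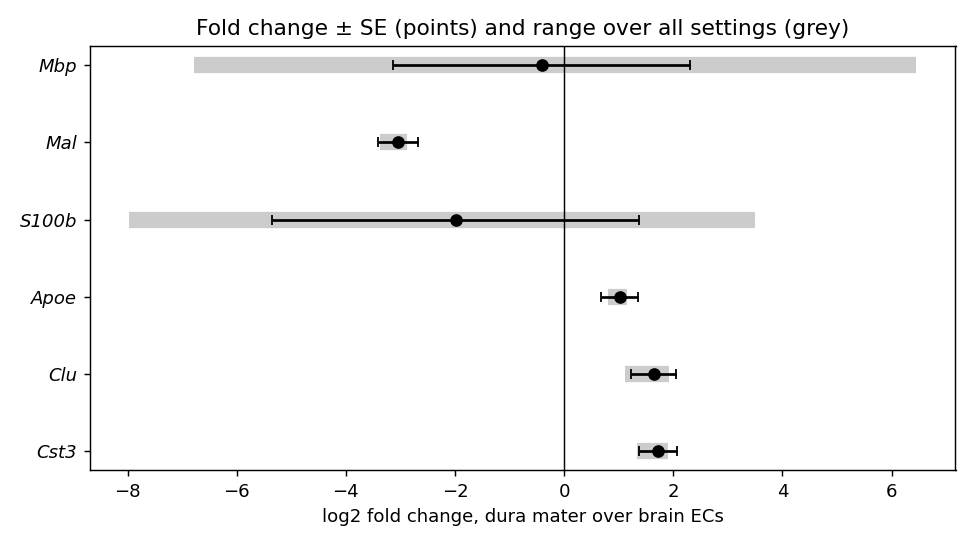
Log2 fold change of dura mater over brain ECs (x axis) with its SE for the 6 genes that passed the filter on low counts (points and bars), and the range over all settings tried (grey). Mal stays between −3.38 and −2.88 and Apoe, Clu and Cst3 stay above 0, while the ranges of Mbp and S100b cross 0.

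Macrophages also make Apoe and Cst3, and fibroblasts of the meninges express several of these secreted proteins, so their markers are given beside them. Of 18 microglia and macrophage genes, 0 had 64 or more counts in all 4 libraries, and 0 of the 7 tested passed in edgeR (0 at an unadjusted p under 0.05). Their summed level was 163 and 119 CPM (brain) against 162 and 91.0 CPM (dura mater). The complement gene C1qc, among the most counted, had 0 and 797 counts against 291 and 2. P2ry12 had 0 counts throughout, and Ptprc, which encodes CD45, had at most 4. Of 13 fibroblast and arachnoid genes, 3 and 4 had 64 or more counts in brain replicates 1 and 2, and 11 and 9 in dura mater replicates 1 and 2, and their summed level was 2756 and 2339 CPM (brain) against 12151 and 11580 CPM (dura mater). Of the 10 tested, 1 passed in edgeR, where 0.428% of all genes tested were called higher, and 4 were higher at an unadjusted p under 0.05. The gene that passed, Mgp, an inhibitor of calcification that accounted for most of that sum and that arterial endothelium also makes, rose from 2364 ± 219 to 10807 ± 82.0 CPM (SD, n = 2; log2 fold change 2.20, SE 0.24, edgeR adjusted p 0.0248). Igf2, a growth factor, had 372 and 13 counts against 6175 and 4405. The collagen genes Col1a1 and Col1a2 and the matrix gene Dcn, named after their values were seen, had 20 and 42, 4 and 31, and 16 and 15 counts (brain) against 759 and 1237, 1135 and 1913, and 1184 and 1664 (dura mater), with edgeR adjusted p of 0.466, 0.357 and 0.271. Pdgfra and Lum, which also mark fibroblasts, had at most 4 counts in any library, and Apod had 2959 and 837 against 1629 and 1711. The summed level of the list, most of it Mgp, was higher in dura mater ECs, as Apoe, Clu and Cst3 were, and its part in their differences was not tested.

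Other cells and the endothelium itself were read in the same way. Of 12 mural cell genes, the cells around vessels, 0 passed in edgeR (1 at an unadjusted p under 0.05), with Acta2 and Myh11 the most counted and a summed level of 761 and 1172 CPM (brain) against 1235 and 700 CPM (dura mater). Of 7 erythroid genes tested, 3 fell in dura mater ECs, as did 0.182% of all genes tested (Hba-a1, Hbb-bs and Hbb-bt, with edgeR adjusted p of 0.0248 each; globin genes are near-identical copies and may share reads), and the summed level was 17939 and 25688 CPM (brain) against 1498 and 772 CPM (dura mater). Erythroid RNA thus ran with Mal, and its part in the difference of Mal was not tested. Of 14 pan-endothelial genes, 0 passed (2 at an unadjusted p under 0.05), and the most counted were Esam and Egfl7. Of 11 genes of blood-brain barrier endothelium, 6 fell in dura mater ECs (Slc2a1, Mfsd2a, Slco1a4, Itm2a, Tfrc and Cldn5), all of them by the same test. Their summed level was 28232 and 25994 CPM (brain) against 3318 and 3457 CPM (dura mater), so it too ran with Mal.

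The partners of these genes differed among themselves. Among 13 relatives of Mal in the MARVEL-domain family, 11 were tested and 0 passed in edgeR (2 at an unadjusted p under 0.05). Pllp (plasmolipin), also a myelin and raft protein, had 6123 and 12830 counts (brain) against 642 and 832 (dura mater), with a log2 fold change of −3.81 ± 0.56 (SE; adjusted p 0.0544 in edgeR). Marveld1 had 4946 and 2765 against 13688 and 14139 counts (log2 fold change 1.78, SE 0.40, edgeR adjusted p 0.195). The relatives therefore did not share 1 direction, and the median of the list was 0.71.

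In the S100 family, 1 of 10 genes tested rose in dura mater ECs, where 0.428% of all genes tested did, and 0 passed with limma-voom or without dura mater replicate 1. This was S100a6, a calcium-binding protein of many cell types, with 56 and 41 counts (brain) against 4578 and 4535 in dura mater (log2 fold change 6.42, SE 0.69, edgeR adjusted p 0.0248). S100a16 and S100a11 were the most counted and stood at 230 ± 92.2 and 265 ± 25.2 CPM in brain ECs against 408 ± 108 and 336 ± 52.9 CPM on the dura mater side (SD, n = 2). Of the 12 genes of intermediate filaments, to which Gfap belongs, 6 were tested and 0 passed in edgeR. At an unadjusted p under 0.05 there were 3, 2 of them higher in dura mater ECs, and the median log2 fold change of the list was 0.21. Vim, the filament gene of mesenchymal and endothelial cells, had 12944 and 7110 against 23382 and 28856 counts, and Lmna, which encodes nuclear lamins, had 1976 and 118 against 10731 and 5730. Synm, named after its values were seen, was lower in dura mater ECs, with 4083 and 5350 against 846 and 959 counts. Its log2 fold change was −2.49 (SE 0.52, edgeR adjusted p 0.156). The 3 neurofilament genes Nefl, Nefm and Nefh had at most 5 counts in any library.

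For Apoe and Clu, 17 genes of lipoprotein handling were examined, of which 12 were tested and 0 passed in edgeR (5 at an unadjusted p under 0.05, 3 of them higher in dura mater ECs). Pltp, a phospholipid transfer protein, stood at 3380 ± 833 CPM (brain) against 1156 ± 135 CPM (dura mater; SD, n = 2), and the receptor Scarb1 at 564 ± 149 and 773 ± 342 CPM. Pltp was thus lower where Apoe was higher, with an edgeR adjusted p of 0.136. For Cst3, 15 cystatin and cathepsin genes were examined, of which 12 were tested and 0 passed (2 at an unadjusted p under 0.05, both lower in dura mater ECs). Ctsh, a cysteine protease of the kind that cystatin C inhibits, had 17685 and 9824 against 3376 and 3735 counts (edgeR adjusted p 0.132). Ctsa, the most counted, differed from Pltp by at most 0.788% of the counts in any library, so these symbols may hold the same reads and are uncertain as single genes. For Snap25, 16 genes of the SNARE machinery were examined, of which 12 were tested and 0 passed (0 at an unadjusted p under 0.05). Vamp3, which serves vesicle fusion outside neurons, had 7267 and 7193 against 5977 and 6411 counts, and Napa had 1006 and 1316 against 2064 and 3236, whereas Cplx1 had at most 1.

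Genes with the most similar pattern were sought among the genes tested with a mean of at least 10 CPM, by the root mean square (RMS) difference of log2(CPM + 1) over the 4 libraries after each gene was centered on its mean. With 4 libraries, many genes can lie close by this measure. Mal lay closest to Prom1 (RMS difference 0.161) and Itm2a (0.181), both with high counts in the brain libraries and lower counts in the dura mater libraries. Mbp lay closest to Adap2 (0.206), with 870 and 1 counts (brain) against 629 and 1 (dura mater), and to 4930503L19Rik (0.281). S100b lay closest to Klhdc3 (0.139), which had 6 and 852 counts against 1 and 242. For the secreted proteins the closest were Klf4 (0.0809) and Xiap (0.0913) for Apoe, Eif4a1 (0.0814) and Gm16973 (0.0858) for Clu, and Lrrc57 (0.0325) and Dcaf5 (0.0504) for Cst3. Gfap lay closest to Pold3 (0.193), with 97 and 69 counts against 903 and 77, and to Inafm2 (0.563).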

How the data were processed

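Sorted ECs of brain and dura mater (2 libraries each) were profiled by QuantSeq, in which reads come from transcript 3′ ends. The authors deposited raw counts per gene symbol, 1 file per library. The study's methods name TopHat and cufflinks, and the submitters' processing notes list Bowtie2, edgeR and mm10; the counting program, annotation, strand setting and use of molecular identifiers are not given in the sources used here. Exons of no other GENCODE M21 gene overlap those of the 9 genes.

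Groups and replicate numbers came from the sample titles. The whole table was fitted with edgeR 4.0.16 (R 4.3.3): filterByExpr, TMM, tissue as the only term, quasi-likelihood test with the older dispersion estimate, Benjamini-Hochberg adjustment over 9347 genes, threshold 0.05, prior count 2, and an SE obtained by dividing the absolute log2 fold change by √F. Scripts were tested on simulated data. The common biological coefficient of variation was 1.39. The alternatives were DESeq2 1.42.0, limma-voom (limma 3.58.1), the newer edgeR dispersion estimate, other scalings and filters, a replicate block, thinning to the smallest library, omission of the 10 most counted genes per library, a prior count of 0.5, and each library left out in turn.

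The members, lists and tests were chosen with earlier results of these data known. The rule named the 9 genes; from each of 17 lists at most 6 genes past the threshold and the 2 with the highest mean CPM; and for each of the 9 genes with at least 64 counts in some library the 2 closest genes in pattern. Any other gene was named after its values were seen. Some genes that the rule names are not reported here. Symbols were looked up in GENCODE M21 for positions (GRCm38).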

Additional observations from a re-analysis of the deposited data

How the results depend on the processing

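In edgeR, 57 genes differed (40 higher and 17 lower in dura mater ECs), 1 of them among the 9 genes (Mal) and 0 among the 86 neural and glial marker genes. The number of genes was 810 (of the 9 genes 3, Mal, Clu and Cst3; of the markers 7) with DESeq2, 306 (3, the same genes; 2) with the newer dispersion estimate, 326 (2, Mal and Cst3; 2) without a filter on low counts, and 141 (2; 2) with at least 10 counts in every library. With the replicate number as a block it was 224 (2; 2). Differences between replicates 1 and 2 were uncorrelated between the tissues (correlation across genes of −0.0153). Because the replicates lay far apart for many genes, this value cannot decide whether equally numbered libraries belong together. The main fit does not take the numbers as a pairing. Limma-voom and upper-quartile scaling each called 1 marker gene (Glul and Ppap2b, respectively). The median log2 fold change of all genes, −0.01, was 0.13 with upper-quartile scaling, 0.28 with limma-voom, 0.25 with the block, 0.27 without a filter, and 1.03 and 0.95 without brain replicates 1 and 2. Leaving out single libraries gave 80 to 740 genes, 0 to 3 of the 9 genes and 0 to 7 marker genes, where the lone library of a tissue is assumed to vary like the other tissue. The number was 740 without brain replicate 1, 701 without brain replicate 2 and 97 without dura mater replicate 2, where 0 of the 9 genes passed. Limma-voom called 40 genes higher and 40 lower. The share of higher genes, 70.2%, was 59.2% with the newer dispersion estimate, 59.8% without a filter, 59.4% with the block, 53.8% without dura mater replicate 1, 53.2% with at least 10 counts in every library and 44.3% without dura mater replicate 2. The log2 fold change of Mbp reversed to 6.45 without brain replicate 1 and to 0.57 without dura mater replicate 2, and that of S100b to 3.50 without brain replicate 2. In these reversals a library with nearly all of the gene's counts in its tissue, or nearly none, was left out. The lowest values of these 2 genes were −6.78 (Mbp, without dura mater replicate 1) and −7.97 (S100b, without dura mater replicate 2). The causes of the other shifts were not tested. No other sign turned among the 6 genes tested. Counts of the 9 genes called are a description, since these genes were selected on the same values. The replicates of Mbp and S100b differed more than the tissues did, and Mog, Gfap and Snap25 were not tested.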
